A study of Homo sapiens with 8 samples.

Results

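The α-satellite array of the X centromere was described through the peaks called on DNA that was recovered with antisense α-satellite probes. Members were all rows of both deposited peak lists on chromosome X whose start lies from 57000000 to 62999999 on build hs1, a choice made by position alone. There were 1468 such peaks among 32035 in the asynchronous list (4.58%, exact 95% interval 4.36 to 4.82%) and 1730 among 33553 in the mitotic list (5.16%, 4.92 to 5.40%). A further 6 asynchronous and 25 mitotic peaks lay elsewhere on X and were not members.

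The cells were RPE1, an immortalised human line of retinal pigment epithelium, labelled wild type (WT) in all libraries. They were taken as an asynchronous culture or as mitotic cells, and the way mitotic cells were obtained was not given in the sources used here. In ChIRP, biotinylated antisense probes capture an RNA from sonicated chromatin together with the DNA attached to it, which is then sequenced. Each condition had 2 probe libraries, labelled Odd and Even, that were merged before peaks were called. The input and Scr libraries were not analysed here. Each condition therefore has 1 list with no replicate error and unknown read depth. No difference between conditions could be tested, and intervals given below cover counting error only. DNA held by the RNA and DNA paired directly with a probe cannot be told apart in these lists.

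α-Satellite is the tandem repeat on which human centromeres are built. Its short monomers differ from one another, and blocks of them are copied in tandem as a chromosome-specific higher-order repeat. On X this repeat, known as DXZ1, holds 12 monomers and belongs to a suprachromosomal family that also has arrays on chromosomes 1, 11 and 17. Part of such an array carries CENP-A, the histone variant that marks the kinetochore site, and some monomers hold a motif for the DNA-binding protein CENP-B. The build hs1 is the sequence of another human cell line, so coverage below is coverage of that reference array and not of the X arrays that RPE1 cells carry. The placement of reads that match many repeat copies was not given in the sources used here.

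The peaks formed 1 continuous region in which more than 60% of the reference was covered in both conditions. Joining peaks of both lists at gaps of at most 100 kb gave a dense region from 57692455 to 61117620, 3.43 Mb long, which held all 1468 asynchronous and 1729 of the 1730 mitotic members. The remaining mitotic member was a peak of 218 bp at 57508378 to 57508595, with a fold enrichment of 4.09. Fold enrichment here is the authors' ratio of pileup over local background for each peak. Asynchronous peaks covered 67.2% of the region and mitotic peaks 63.2%, or 2.30 and 2.16 Mb. The mitotic list thus had more peaks but less covered length on X. The ratio of mitotic to asynchronous members was 1.18 (1.10 to 1.26), against 1.04 (1.02 to 1.06) for all other peaks. The ratio of covered length was 0.940 on X and 1.02 elsewhere. Neighbouring peaks are not independent, so these intervals are narrower than the true error.

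Mitotic peaks on X were narrower. The median width was 1086 bp for asynchronous peaks (exact 95% interval 1021 to 1146) and 845 bp for mitotic ones (796 to 897). The middle 50% of widths ran from 570 to 1870 bp and from 494 to 1496 bp. The asynchronous median on X exceeded that of its whole list, 868 bp, by more than the mitotic one exceeded its own, 796 bp. Peaks lay close together: the median gap was 300 bp between asynchronous and 352 bp between mitotic peaks, and every gap exceeded 100 bp. Peak starts followed each other at a median of 1825 and 1501 bp. Mitotic starts thus lay closer together, while the gaps between mitotic peaks were slightly larger at the median.

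Coverage was uneven along the array, and the pattern was shared by both lists. Of the 60 fixed bins of 100 kb in the window, 23 held no peak. At least 20% of the bin was covered in both lists in 33 consecutive bins, from 57800000 to 61099999, and these were taken as the body of the array. This body is defined by peak coverage alone, since no repeat annotation of the build was at hand. Whether its outer bins lie within the DXZ1 array or beside it is therefore not known. Bins outside this body were nearly empty, with at most 5.25% covered in either list. Inside it the covered share of asynchronous peaks ranged from 23.6 to 95.7% (median 72.0%) and that of mitotic peaks from 44.2 to 89.5% (median 65.5%). Across the 33 bins the covered shares of the lists had a Pearson correlation of 0.908 and a Spearman correlation of 0.932. This describes bins on 1 reference sequence that share the same repeat, and carries no test.

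**Figure D1:**
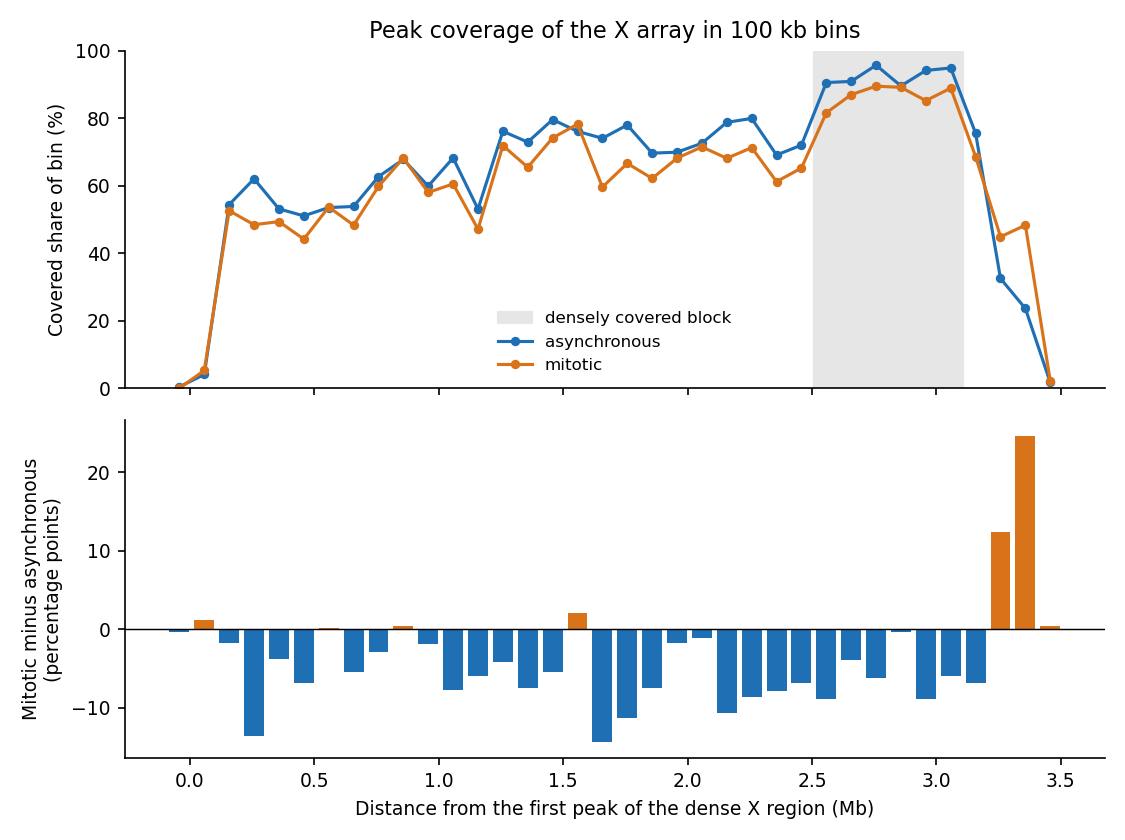
Top, the share of each 100 kb bin covered by peaks (%) in the asynchronous (blue) and mitotic (orange) list, against the distance in Mb from the first peak of the dense X region. Bottom, the mitotic minus the asynchronous share in percentage points. Coverage is highest in both lists in the shaded block of 6 bins, and the mitotic share is lower in 28 of the 33 bins of the array body and higher by 12.4 and 24.7 points in its last 2.

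Dense coverage began abruptly in both lists. The bin from 57700000 was covered over 4.06% by asynchronous and 5.25% by mitotic peaks, and the next, from 57800000, over 54.4 and 52.6%. The bin at the edge still held a long gap between listed peaks in both conditions. It was 22479 bp from 57802948 for asynchronous and 22172 bp from 57802521 for mitotic peaks. The running numbers in the peak names skip 8 asynchronous and 3 mitotic numbers there. This gap was the longest of the mitotic list inside the dense region and the third longest of the asynchronous list. The longest asynchronous gap, 74423 bp (57692848 to 57767270), lay just outside the array body. Both conditions thus began to be densely covered at the same place on the reference.

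Across the first 2.4 Mb of the body, from 57800000 to 60199999, coverage rose stepwise. In 3 successive stretches of 8 bins the asynchronous list covered 57.3, 70.0 and 73.8%, and the mitotic list covered 53.1, 64.4 and 66.8%. Median peak width rose alongside, from 819 to 1048 and 1174 bp for asynchronous and from 644 to 842 and 892 bp for mitotic peaks. The number of peaks was 414, 403 and 429 against 473, 463 and 496. From the first to the second stretch, the higher coverage went with wider peaks and not with more of them. From the second to the third stretch, median width and peak number both rose in each list. The lowest bins before the array's far end lay here: that from 58100000 was covered over 51.1 and 44.2%, and that from 58800000 over 53.1 and 47.1%.

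A block of 600 kb near the far end of the array, from 60200000 to 60799999, was the most completely covered part of X in both conditions. Its 6 bins were the only ones on X with at least 80% covered in both lists, a limit set after the values had been seen. Asynchronous peaks covered 90.6, 90.9, 95.7, 89.6, 94.2 and 94.9% of the successive bins, and 92.6% of the block. Mitotic peaks covered 81.6, 87.0, 89.5, 89.2, 85.2 and 88.9%, and 86.9% of the block. Each of these values lay above every bin of the same list outside the block. The bin just before it was covered over 72.0 and 65.2%, and the bin just after over 75.5 and 68.6%. The 3 bins of highest mean coverage were those from 60400000, 60700000 and 60600000. Over all chromosomes, 23.4% of the bins with at least 20% covered in both lists reached 80% in both, and on X 18.2% did, so that dense bins as such were not more common on X. Unbroken runs of such bins reached 20 on chromosome 20 and 9 on chromosome 15, against 6 on X.

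Within the block peaks were few and wide. It held 139 asynchronous peaks (23.2 per 100 kb) and 214 mitotic peaks (35.7 per 100 kb), against 51.9 and 59.7 per 100 kb in the 2.4 Mb before it. Median width was 2499 bp for asynchronous peaks (2092 to 3268) and 1696 bp for mitotic peaks (1469 to 1871), against 996 bp (919 to 1068) and 758 bp (719 to 819) before the block. The block was chosen for its coverage, which peak width makes up, so the wider peaks are a description of it. Peaks wider than 5000 bp numbered 36 and 23 in the block and made up 58.7 and 36.7% of its covered length, against 5.25 and 2.19% before it. Wider, fuller peaks in the block also had a higher fold enrichment, with medians of 10.99 for asynchronous and 9.67 for mitotic peaks, compared with 8.61 and 8.13 before. A block that is nearly filled leaves little room for gaps, and these had a median of 204 and 226 bp.

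**Figure D2:**
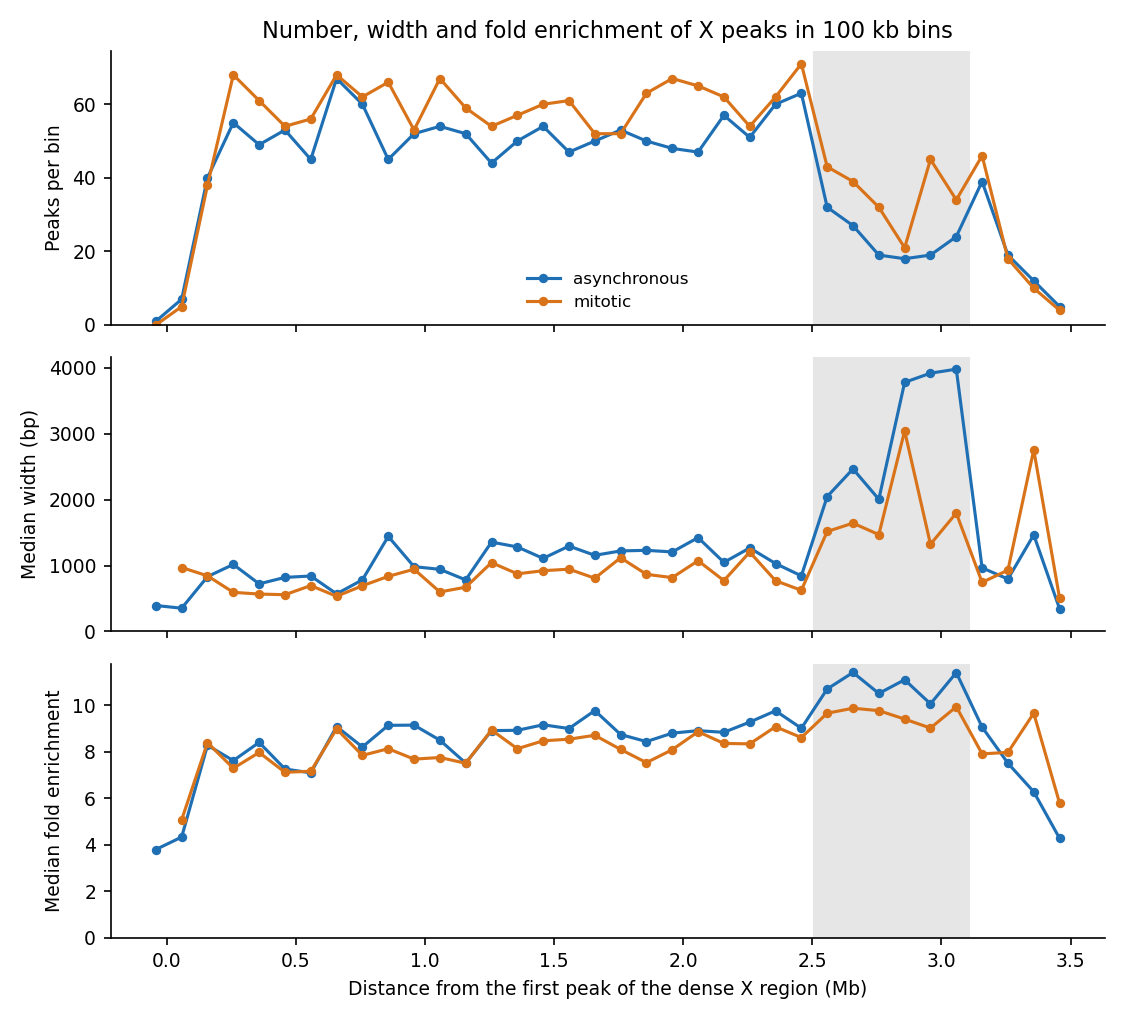
Number of peaks, median peak width (bp) and median authors' fold enrichment (ratio) of the peaks starting in each 100 kb bin, against the distance in Mb from the first peak of the dense X region, for the asynchronous (blue) and mitotic (orange) list. In the shaded block the asynchronous peak number falls to between 18 and 32 per bin while median width reaches 3982 bp.

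At finer scale the step at the near border of the block was larger in the asynchronous list than in the mitotic list. In windows of 20 kb the asynchronous share went from 67.4% in the last window before 60200000 to 94.2% in the first window after it, and the mitotic share from 64.6 to 79.8%. The mitotic share then fell back to 75.7 and 73.3% in the windows from 60260000 and 60280000, below the 81.9 and 80.02% of the windows from 59940000 and 59980000 before the block. Asynchronous shares overlapped too, with 81.3 and 81.5% in the windows from 60280000 and 60380000 of the block. The windows from 59900000 and 59980000 before it had 85.0 and 86.7%. The longest run of windows with at least 80% covered in both lists went from 60300000 to 60579999. Of the 30 windows in the block, 29 were covered over at least 80% by asynchronous and 24 by mitotic peaks. Of the 15 windows before it, 3 and 2 were. The least covered window of the block in both lists was that from 60580000, at 68.9 and 63.6%, so that both conditions shared the same break. At the far side high coverage ran on for 2 more windows in both lists, with 99.5 and 90.8% for asynchronous and 87.6 and 89.6% for mitotic peaks, and then dropped to 56.7 and 48.6%.

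**Figure D3:**
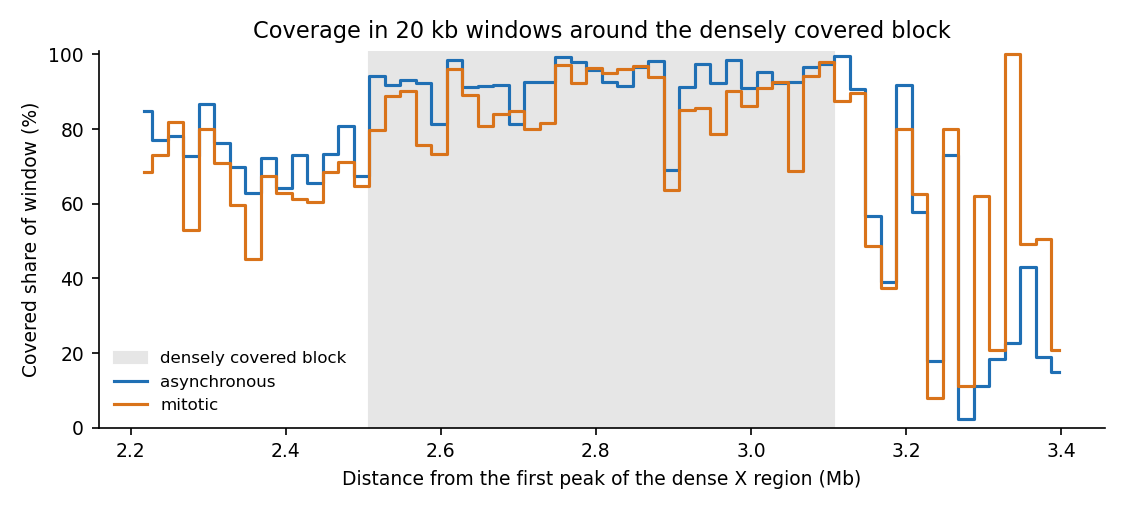
Share of each 20 kb window covered by peaks (%) around the densely covered block (shaded), against the distance in Mb from the first peak of the dense X region, in the asynchronous (blue) and mitotic (orange) list. Asynchronous coverage steps up at the near border of the block, mitotic coverage rises less evenly, and both become irregular after it, where 1 window reaches 100% in the mitotic list and 22.8% in the asynchronous one.

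The widest peaks of the asynchronous list lay in or at the edge of this block, as did the second and the third of the mitotic list. The widest asynchronous peak, 22467 bp from 60440503 to 60462969 with a fold enrichment of 12.2, was met by 4 mitotic peaks that together covered 98.2% of it. The next, 18942 bp from 60468930 to 60487871, was met by 3 mitotic peaks that covered 97.9% of it. These stretches were thus recovered in both conditions, as several pieces in the mitotic list. The third, 18922 bp from 60798951 to 60817872 across the far border, was covered over 87.7% by 2 mitotic peaks. In the other direction, the mitotic peak of 15842 bp from 60304730 to 60320571 lay wholly inside 1 asynchronous peak, while that of 14895 bp from 60786427 to 60801321 was met by 3 asynchronous peaks that covered 97.8% of it. Splitting of wide peaks therefore ran both ways.

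The peaks of highest fold enrichment were short ones away from the block. In the asynchronous list they were 772, 1247 and 1042 bp wide, began at 59020077, 59992102 and 58989330, and had a fold enrichment of 16.5, 16.2 and 16.0. In the mitotic list they were 595, 1469 and 969 bp wide, began at 57923652, 58600678 and 60046027, and had a fold enrichment of 14.5, 14.3 and 14.2. Each of the 6 was met by exactly 1 peak of the other list, which covered at least 99.7% of it. The strongest sites differed between the lists in rank, but none was missing from the other list.

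**Figure D4:**
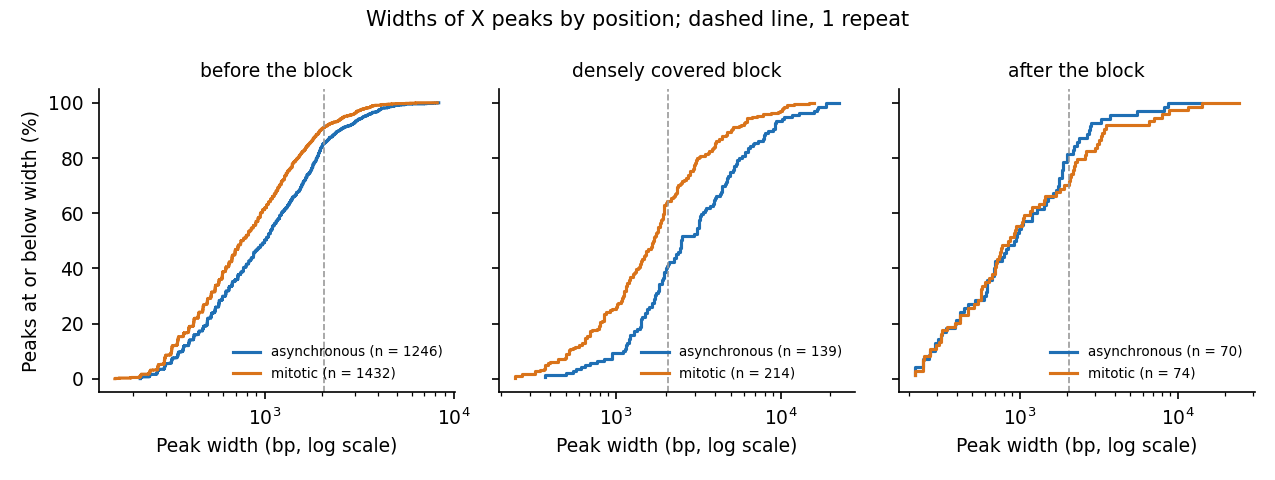
Cumulative share of peaks (%) against peak width (bp, log scale) before, in and after the densely covered block, for the asynchronous (blue) and mitotic (orange) list, with the number of peaks in each panel. The dashed line marks 1 repeat of 2057 bp. Mitotic widths lie to the left of asynchronous widths before and in the block, and the curves cross after it.

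Beyond the block peak coverage thinned out, and in the last 2 bins of the body the order of the conditions turned. Whether these bins belong to the array on the reference is not known. In the 300 kb from 60800000 to 61099999 asynchronous peaks covered 43.9% and mitotic peaks 53.9%. The first bin of this stretch, from 60800000, was still less covered in the mitotic list, over 68.6 against 75.5%. The bin from 60900000 went from 32.5% asynchronous to 44.9% mitotic coverage, and the bin from 61000000 from 23.6 to 48.3%. These 2 bins showed the largest gains in covered length on X, 12353 and 24689 bp, and had the lowest mean coverage of the body. The next largest gain was 2129 bp in the bin from 59200000. The number of peaks did not rise, with 19 and 12 asynchronous against 18 and 10 mitotic peaks in these 2 bins. The gain came from a few wide mitotic peaks.

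The largest of them was the widest mitotic peak on X, 24276 bp from 61016254 to 61040529 with a fold enrichment of 10.5. Asynchronous peaks covered 33.9% of it, through 1 peak of 8230 bp that begins at 61016327. The next mitotic peak, 7072 bp from 61040676 to 61047747 with a fold enrichment of 10.2, met no asynchronous peak. Both fell for the most part in an asynchronous gap of 24672 bp (61024557 to 61049228). The running numbers in the peak names, which follow position in both lists, skip 9 asynchronous numbers in that gap. If skipped numbers are calls that were removed before deposit, the contrast in this stretch is one of listed peaks and not of calls. Another wide mitotic peak, 7993 bp from 60992454 to 61000446 with a lower fold enrichment of 6.69, was covered over 6.74% by asynchronous peaks. By contrast, a neighbouring site at 60945452 to 60959545, 1 asynchronous peak of 14094 bp, was covered over 99.1% by 2 mitotic peaks. These wide peaks beyond the block were chosen on seeing their values.

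Apart from these bins, the lower mitotic coverage held along most of the array. Covered length was lower in the mitotic list in 28 of the 33 bins (84.8%) and higher in 5, with a median difference of -5957 bp. Over all bins with at least 20% covered in both lists on 23 chromosomes, 53.1% were lower in the mitotic list. It fell by 14458 bp in the bin from 59300000, fell by 13598 bp in that from 57900000 and fell by 11368 bp in that from 59400000, the largest falls. The bin from 59300000 had nearly equal peak numbers, 50 and 52, and went from 74.0 to 59.6% covered. The peak number was higher in the mitotic list in 29 of 33 bins, the median width lower in 30 and the median fold enrichment lower in 28. These counts were not made over the bins of all chromosomes. Among the largest dense regions of 23 chromosomes, the median width was lower in the mitotic list in 10 and the median fold enrichment in 6. When peaks had to reach both 6 in fold enrichment and 5 in −log10 q, coverage was again lower in 28 bins.

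Most X peaks occurred in both lists, and asynchronous peaks were more often split in the mitotic list than the reverse. Counting any overlap from 1 bp, 1278 asynchronous members (87.1%, 85.2 to 88.7%) met a mitotic peak, and 1523 mitotic members (88.0%, 86.4 to 89.5%) met an asynchronous one. The same shares over the whole lists were 81.9% and 79.2%. Overlap by chance rises with coverage, and how far it accounts for these shares was not tested. The lists shared 1.86 Mb on X, or 80.8% of what asynchronous and 85.9% of what mitotic peaks covered, a Jaccard index (shared over combined length) of 71.4%. Of the asynchronous members, 322 (21.9%, 19.8 to 24.1%) met 2 or more mitotic peaks, against 14.2% over the whole list. Of the mitotic members, 156 (9.02%, 7.71 to 10.5%) met 2 or more asynchronous peaks, against 12.4% over the whole list. A single asynchronous peak met up to 7 mitotic peaks, and a single mitotic peak up to 4 asynchronous ones.

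Members without a counterpart were short and weak in both lists. The 190 asynchronous members that met no mitotic peak had a median width of 484 bp and a median fold enrichment of 6.15, against 1196 bp and 9.18 for the others. The 207 mitotic members that met none had medians of 497 bp and 6.51, against 919 bp and 8.62. A wide peak meets the other list more easily when 1 bp counts as overlap, so the contrast in width partly follows from the rule. Agreement by length differed along the array: the Jaccard index was 68.2% before the block, 88.8% in it and 54.2% after it. Over single bins it ran from 25.8% in the bin from 61000000 to 92.4% in that from 60500000. The index rises with coverage by itself, and that part was not separated.

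Peak starts recurred at regular distances. The distance most often found between asynchronous starts was 2050 bp, with 91 pairs in a window of 51 bp, and between mitotic starts it was 4099 bp, with 112 pairs. When periods from 1500 to 4000 bp were scored, the leading one was 2054 bp for asynchronous and 2060 bp for mitotic starts. Their mean, 2057 bp, corresponds to 171.4 bp for each of 12 monomers, and is used below as the length of 1 repeat. Scored in the same way, peak ends gave 2064 bp for asynchronous and 2054 bp for mitotic peaks. Peak midpoints gave 2062 and 2082 bp, so the estimate depends on the position used. Starts are resolved to about 25 bp, since 97.6 and 98.2% of them lie 0 to 5 bp past a multiple of 25 bp. Both lists lie on the same reference, so the mitotic spacing is no independent observation. Spacing set by the reference sequence cannot be told apart here from spacing of the recovered DNA.

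The length of 2057 bp was read from these same distances, so the number of pairs at 1 repeat restates that choice. At 1 repeat there were 76 asynchronous pairs against a mean of 35.8 over the surrounding distances, a ratio of 2.12, and 85 mitotic pairs against 49.1, a ratio of 1.73. At 2 repeats the ratios were 1.98 and 1.86. Up to 8 repeats, 16456 bp, the asynchronous ratio stayed between 1.40 and 2.12, and it was 1.07 at 9. The mitotic ratio lay between 1.26 and 1.86 from 1 to 9 repeats. Pairs of starts thus exceeded their surroundings at each multiple up to 8 repeats in both lists. Among distances of whole monomers up to 1 repeat, only that of 12 monomers stood clear. For 3 to 11 monomers the ratio to the same mean, that around 1 repeat, ran from 0.558 to 1.06 for asynchronous and from 0.652 to 1.16 for mitotic starts. Starts cannot lie closer together than a peak's width and the gap after it. Low ratios at short distances are therefore partly fixed in advance.

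**Figure D5:**
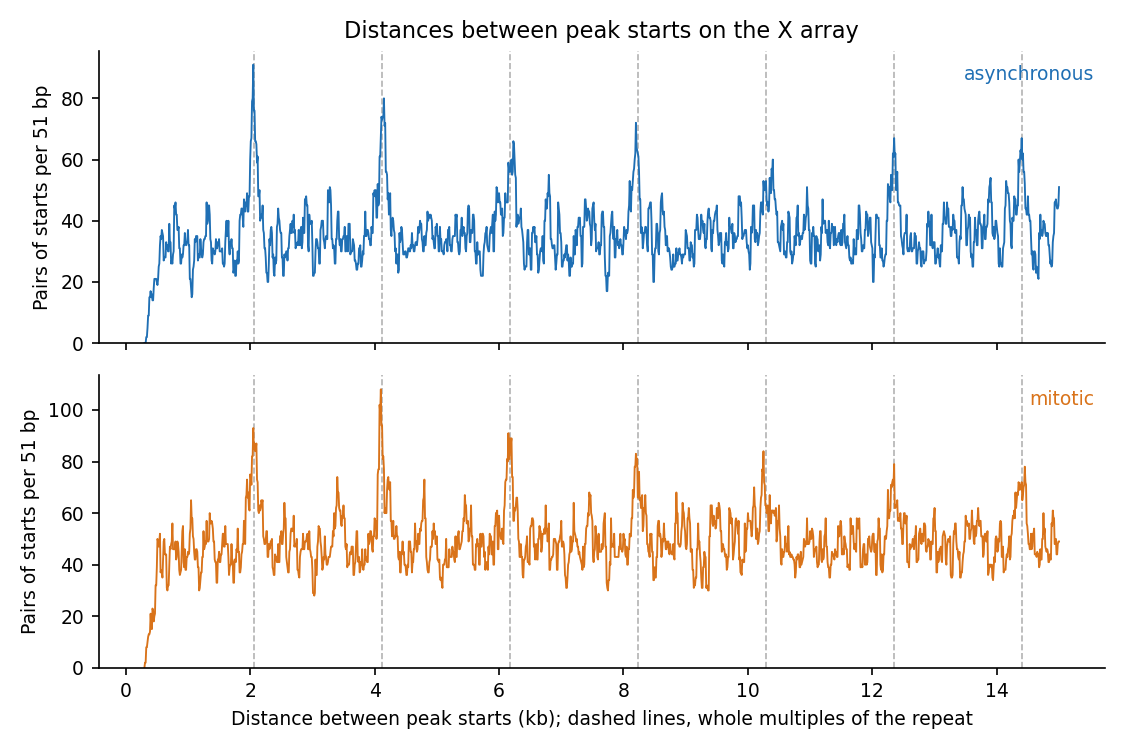
Number of pairs of X peak starts per 51 bp window against the distance between them (kb), in the asynchronous (blue, top) and mitotic (orange, bottom) list. Dashed lines mark whole multiples of 2057 bp, and pairs rise above their surroundings at each of them, with 76 asynchronous and 85 mitotic pairs at the first.

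When shorter periods were also scored, from 300 bp, periods near whole fractions of 2057 bp led. The leading period of asynchronous starts was 1026 bp, which taken 2 times gives 2052 bp. That of mitotic starts was 684 bp, which taken 3 times gives 2052 bp. Asynchronous ends gave 514 bp, 4 times which is 2056 bp. Mitotic midpoints gave 1022 bp, 2 times which is 2044 bp and further off. The multiples were picked to come near 2057 bp. At the fractions themselves pairs of asynchronous starts lay below the mean around 1 repeat, where peak width also thins out short distances. The asynchronous ratio was 0.558 at 514 bp, 0.837 at 686 bp and 0.642 at 1028 bp. Among mitotic starts the ratio was 1.02, 0.652 and 1.06 at the same distances. Neither list thus showed at the fractions the excess found at 1 repeat. These periods are therefore no separate evidence of the repeat length. The stretch before the block carried this spacing, with 71 pairs at 1 repeat in each list, ratios of 2.16 and 1.65. In the block there were too few asynchronous starts to judge, with 1 pair at 1 repeat, and 12 mitotic pairs, against means of 1.67 and 4.25.

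Most peaks were shorter than 1 repeat, but much of the covered length was in longer ones. Widths above 2057 bp were found in 281 asynchronous members (19.1%, 17.2 to 21.2%) and 230 mitotic members (13.3%, 11.7 to 15.0%), which held 50.3 and 40.7% of the covered length. The median peak spanned 0.528 repeats among asynchronous and 0.411 among mitotic peaks. The widest spanned 10.9 and 11.8 repeats. Peaks longer than 5 repeats numbered 10 and 9.

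Numbers missing from the peak names were spread unevenly along the array. Between the first and the last member the names span 2190 asynchronous and 2546 mitotic numbers, of which 67.0 and 67.9% are listed, against 42.4 and 22.4% of all numbers in the whole lists. In the block 90.3 and 85.6% were listed, before it 69.2 and 68.9%, and after it 45.8 and 55.2%. The listed share thus moved with coverage in all 3 stretches and both lists. The part of the missing numbers in the lower coverage outside the block was not tested. The rule by which peaks were kept was not given in the sources used here.

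Chromosomes 1, 11 and 17, which carry arrays of the same suprachromosomal family, were used for comparison. Which arrays fill their largest dense regions was not given in the sources used here, so these regions may hold other families too. Median peak width was lower in the mitotic list in the largest dense region of each: 941 and 740 bp on chromosome 1, 944 and 766 bp on 11, and 917 and 815 bp on 17. The ratio of mitotic to asynchronous median width was 0.778 on X, the lowest of 23 chromosomes, followed by 0.786 on chromosome 1 and 0.811 on 11. Chromosomes 4 (0.842), 5 (0.881) and 19 (0.888), not among those chosen by family, came before 17 (0.889). The ratio was below 1 on 10 chromosomes and had a median of 1.02. Bins with less mitotic coverage numbered 49 of 52 on chromosome 1, 34 of 36 on 11 and 24 of 37 on 17, and also 27 of 33 on chromosome 5 and 35 of 52 on 19. Each chromosome is 1 region in 1 list per condition, so whether this sets the family apart was not tested. By 3 measures within each list X was in the middle of the 23 regions: it ranked 13 and 14 by coverage from the highest, 11 and 15 by median width and 10 and 15 by median fold enrichment. The most frequent distance between starts was 1975 and 2900 bp on chromosome 1, 2549 and 3375 bp on 11, and 2673 and 2725 bp on 17, against 2050 and 4099 bp on X.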

How the data were processed

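The submitters' processing notes name fastp, Bowtie2, MACS2 and build hs1, without versions or settings. Per the labels, each list comes from the merged Odd and Even libraries. The lists have no header, and columns were identified by their values and by the MACS2 broad peak layout. The authors' fold enrichment, a ratio, and the deposited −log10 q value describe single peaks and were used to rank and filter them within a list. The deposited pileup signal and 3 further deposited score columns of unstated meaning were not used, nor was the gene table, which is of another build. No sequence or repeat annotation of build hs1 was at hand.

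Coverage, gaps, widths and overlaps were computed from peak positions, counted from 1. Dense regions joined peaks of both lists at gaps of at most 100 kb and held at least 20 peaks. Shares carry Clopper-Pearson, ratios conditional binomial and medians order-statistic intervals, all exact at 95%. For spacing, pairs of starts at most 20 kb apart entered a distance histogram, its moving mean over 2001 bp was subtracted, and a cosine was fitted at periods 2 bp apart. The code was tested on simulated data. The members, bins and lists of comparisons were chosen with earlier results of these data known. The 80 and 20% limits, the block and the wide peaks beyond it were set on seeing the values. Named sites were the 3 widest peaks, the 3 of highest fold enrichment and the 3 longest gaps per list, and the 3 bins of highest and lowest coverage and of largest rise and fall. No gene is named. Alternatives covered stricter limits, joining, bin size, overlap and spacing. Software was scipy 1.17.1, numpy 2.4.6 and pandas 2.3.3 under Python 3.11.15, with figures by matplotlib 3.10.9.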

Additional observations from a re-analysis of the deposited data

How the results depend on the processing

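No paired analysis was possible because each condition has 1 list from merged libraries, which also left no replicate to leave out. Over the whole dense region, asynchronous coverage was the higher under the stricter limit, the median split and both other joining gaps. Median width was the larger in asynchronous cells under the stricter limit, the median split and joining at 500 bp. With limits of 6 on fold enrichment and 5 on −log10 q, covered length was 2190 kb in the asynchronous and 2038 kb in the mitotic list, coverage 63.9 and 59.5%, median width 1242 and 970 bp, and the Jaccard index 70.9%. With members at or above the median fold enrichment, peaks numbered 734 and 865 by construction, covered length was 1578 and 1437 kb, coverage 46.1 and 42.0%, and median width 1596 and 1171 bp. Joining at gaps up to 500 bp left 513 and 646 peaks with medians of 2190 and 1808 bp. Defining the region with gaps up to 50 kb gave a coverage of 68.4 and 64.3%, and up to 20 kb 69.8 and 65.5%. At a reciprocal overlap of 50%, 62.8 and 53.3% of members met the other list, and at 50% of the shorter peak 86.4% of the mitotic members did. The share of bins higher in the mitotic list was 20% with 50 kb bins, 6.25% with 200 kb bins and 18.2% with bins shifted by 50 kb. The leading period was 514 bp from asynchronous ends, 1022 bp from mitotic midpoints, 680 bp from asynchronous distances up to 10 kb, and 2054 and 2060 bp from 1500 bp upwards. For these changes the cause was not tested beyond the construction of each alternative. Pooled over the 300 kb after the block, mitotic coverage was 49.5% against 41.4% asynchronous under the stricter limit. With equal numbers of strongest peaks, which can only lower the mitotic value, it was 49.5 against 43.9%. Both settings were added after seeing the data. Read depth is unknown, so a stretch without a listed peak is not shown to lack recovered DNA.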

Other observations

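Fold enrichment and coverage moved together over the 33 bins of the X array body. The Spearman correlation of a bin's median fold enrichment with its covered share was 0.801 for asynchronous and 0.615 for mitotic peaks, while that of the number of peaks with the covered share was -0.265 and -0.222. These describe neighbouring bins of 1 list on 1 reference, in which peak number, width and coverage constrain one another. The bin from 60600000 showed the largest gap in peak number inside the block, with 19 asynchronous and 45 mitotic peaks and a median width of 3921 and 1323 bp, while coverage was 94.2 and 85.2%. In the adjacent bin from 60500000 the lists were closest, with 18 and 21 peaks and 89.6 and 89.2% covered.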
